A study of Mus musculus with 63 samples.

Results

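Proximal tubular (PT) cells of the mouse kidney after 2 days of ureteric obstruction were compared with those of sham-operated mice by small RNA sequencing (sRNA-Seq) of sorted cells. The comparison holds 8 of the 63 libraries of the series, 4 sham and 4 UUO-2, where UUO-2 is 2 days of unilateral ureteric obstruction. All mice were male C57BL/6 of 8 to 12 weeks, with no transgene or deletion named by the labels, the time of the sham operation is not given in the sources used here, and UUO-2 animals had the ureter ligated near the bladder with a tube around its upper part. The 4 animals of a group were chosen by the study among 5 for a level of Havcr1, a tubular injury gene, close to the group mean, so the spread between animals may be smaller than in an unselected group. PT cells are the CD45-, CD31- and LTL+ fraction, where LTL is a lectin that binds the brush border of the proximal tubule, so that tubular cells that no longer bind it were not collected. The other sorted populations were ECs (CD45-CD31+), F4/80hi Macs and PDGFR-β+ cells of the same mice, and the other conditions were UUO-7 and R-UUO, 7 days of obstruction without and with later reimplantation of the ureter. Libraries are given below in the order of their replicate numbers 1 to 4, which name different mice in sham and in UUO-2.

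The members of the comparison are all 2110 genomic loci of a mature miRNA in the count table, under 1966 names. Of these, 1084 had no count in any of the 8 libraries, 696 had counts but too few to pass the filter of edgeR, and 330 were tested. A locus was called when the adjusted p of edgeR's quasi-likelihood test was under 0.05 and the fold change above 1.5. Levels are CPM, counts scaled to a common library total and by TMM over the 16 PT libraries, and changes are log2 fold changes of UUO-2 over sham with their standard errors (SE). A level in CPM is a share of the small RNA of the sorted cells, and fewer cells of a type and less RNA per cell cannot be told apart.

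MiRNAs are short RNAs cut as 2 arms, 5p and 3p, from a hairpin, and they repress mRNAs that pair with their seed, bases 2 to 8 of the mature strand. Members with the same seed form a family and can lie on several chromosomes, while hairpins that lie close together are often made from 1 transcript. The proximal tubule reabsorbs most of the filtered solutes and is rich in miR-192 and miR-194, and its cells flatten, lose transport function and proliferate when the ureter is blocked.

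The 4 UUO-2 libraries had totals of 944386 to 1675136 counts and the sham libraries 622689 to 987306 (2-sided exact permutation test, p = 0.0857, where 4 against 4 cannot go below 0.0286). The limit of detection, set at 3 counts, was 2.71 to 3.83 CPM in sham and 1.59 to 2.98 CPM in UUO-2 and covers counting error only. The marker of the sorted cells was present: miR-192-5p took 14.9% to 17.6% of the counts in sham and 6.15% to 10.2% in UUO-2, and its level in sham PT cells was over every other population (118265 against at most 3889 CPM, scaled over all 63 libraries). Among the PT libraries that share the estimate of the spread, R-UUO 1 stood apart, with 40.5% of its counts in miR-10a-5p and a TMM factor of 0.427, and without it 93 loci were called, among them all 63 of the main comparison.

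The sequences of the members that the results turn on are shown here, credited to RefSeq (GRCm38.p6), where 293 of the 330 tested loci and 57 of the 63 called loci had an entry. Capitals mark the seed. The first set is the miR-183 cluster, whose tested members had the largest median change among clusters with a called locus and at least 2 tested loci:
miR-96-5p: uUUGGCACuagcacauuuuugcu
miR-183-5p: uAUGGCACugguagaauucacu
miR-182-5p: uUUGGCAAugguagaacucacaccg

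The second set is the miR-181 family, with 1 seed and members that moved in opposite directions:
miR-181a-5p: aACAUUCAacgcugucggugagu
miR-181b-5p: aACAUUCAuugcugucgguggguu
miR-181c-5p: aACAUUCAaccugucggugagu
miR-181d-5p: aACAUUCAuuguugucggugggu

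The third set is the miR-200 family, with 2 seeds that each occur in the hairpins of chr6 (miR-141 and miR-200c) and in those of chr4:
miR-141-3p: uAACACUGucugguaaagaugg
miR-200a-3p: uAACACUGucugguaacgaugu
miR-200c-3p: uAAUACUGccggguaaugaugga
miR-200b-3p: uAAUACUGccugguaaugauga
miR-429-3p: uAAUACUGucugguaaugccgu

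The last set holds a pair that differs outside the seed, miR-10a-5p and miR-10b-5p, a member of the X chromosome cluster with the seed of miR-15 and miR-16, shown beside miR-15a-5p, and 4 members of other clusters or introns, 3 of which rose while miR-192-5p fell:
miR-10a-5p: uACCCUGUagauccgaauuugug
miR-10b-5p: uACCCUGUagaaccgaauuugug
miR-322-5p: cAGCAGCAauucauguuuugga
miR-15a-5p: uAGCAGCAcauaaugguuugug
miR-204-5p: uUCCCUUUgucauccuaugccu
miR-653-5p: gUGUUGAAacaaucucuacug
miR-21a-5p: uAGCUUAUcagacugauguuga
miR-192-5p: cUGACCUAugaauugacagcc

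After 2 days of obstruction 49 loci were higher and 14 lower in PT cells, 63 of 330 tested (19.1% called, 14.8% higher and 4.24% lower). Rises included miR-653-5p, miR-183-5p, miR-351-5p, miR-182-5p and miR-204-5p, and falls miR-5100, miR-6538 and miR-5119. MiR-5100 was under the limit of 3 counts in UUO-2 1 and UUO-2 4. For miR-96-5p, miR-224-5p, miR-542-3p, miR-450b-5p, miR-210-5p and miR-92a-1-5p most sham libraries were at or under the limit of 3 counts. These loci passed the filter through PT libraries other than sham. Their fitted changes depend on the small number added to the counts and are no measured folds. Other loci with low sham levels, among them miR-653-5p, miR-335-5p, miR-141-5p and the chr7 copy of miR-9-5p, also needed PT libraries other than sham to pass. The rises of all these loci are not independent of the filter. The median change over all tested loci was 0.02 on the log2 scale. The libraries of the 2 groups did not overlap in 118 of the 330 loci (35.8%), 74 with UUO-2 higher (22.4%) and 44 with UUO-2 lower (13.3%), and among the 63 called loci miR-210-3p was the exception that overlapped. Leaving out UUO-2 4 gave 38 called loci, and leaving out UUO-2 1 or sham 4 gave 41 each. Of 49 called loci chosen by the rule for named loci, 23 were called under every alternative that tested them, and those named below that were lost without a single library are given with the values.

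**Figure D1:**
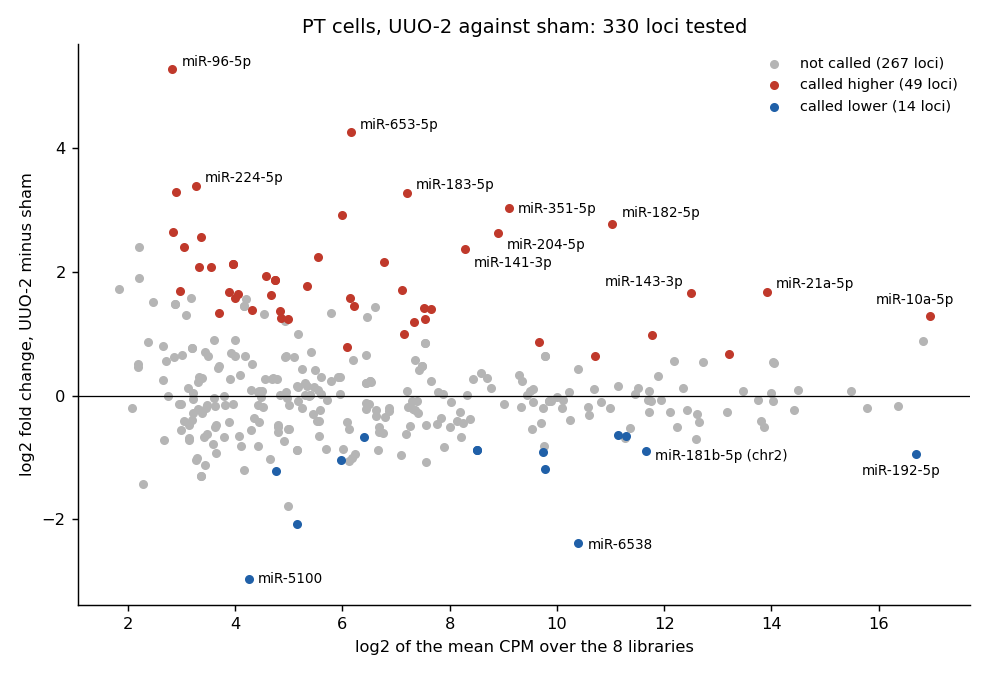
Each point is 1 of the 330 tested miRNA loci, with the log2 of its mean CPM over the 8 libraries on the x axis and its log2 fold change, UUO-2 minus sham, on the y axis. The 49 loci called higher (red) include rare members such as miR-96-5p and abundant ones such as miR-10a-5p, and among the 14 called lower (blue) miR-192-5p is the most abundant.

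The miR-183 cluster (chr6:30165962-30169732, minus strand, GRCm38, in no annotated gene of that strand) encodes miR-182, miR-96 and miR-183, which are known from sensory organs and from epithelial cells. All 3 tested loci rose, beside 14.8% called higher over all loci (median of the list 3.28). MiR-182-5p, the most abundant member, had 873, 461, 352 and 449 CPM in the sham libraries and 2872, 4049, 3457 and 4269 CPM in UUO-2. All UUO-2 libraries lay over 3 times above the highest sham library (log2 fold change 2.78 ± 0.46, adjusted p = 0.000881). MiR-183-5p had 51.8, 11.5, 21.7 and 23.5 CPM in sham and 265, 274, 229.6 and 297 CPM in UUO-2, a change of 3.28 ± 0.50 (adjusted p = 0.000556). MiR-96-5p was at 0 counts in 3 of the 4 sham libraries and at 1.08 CPM in sham 1, under the limit of 3 counts, against 12.8, 10.9, 10.1 and 21.9 CPM in UUO-2. Its fitted change of 5.28 ± 1.42 (adjusted p = 0.0156) depends on the small number added to the counts and is not a measured fold. The 3 arms of the opposite strand of these hairpins (miR-182-3p, miR-96-3p and miR-183-3p) did not pass the filter.

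**Figure D2:**
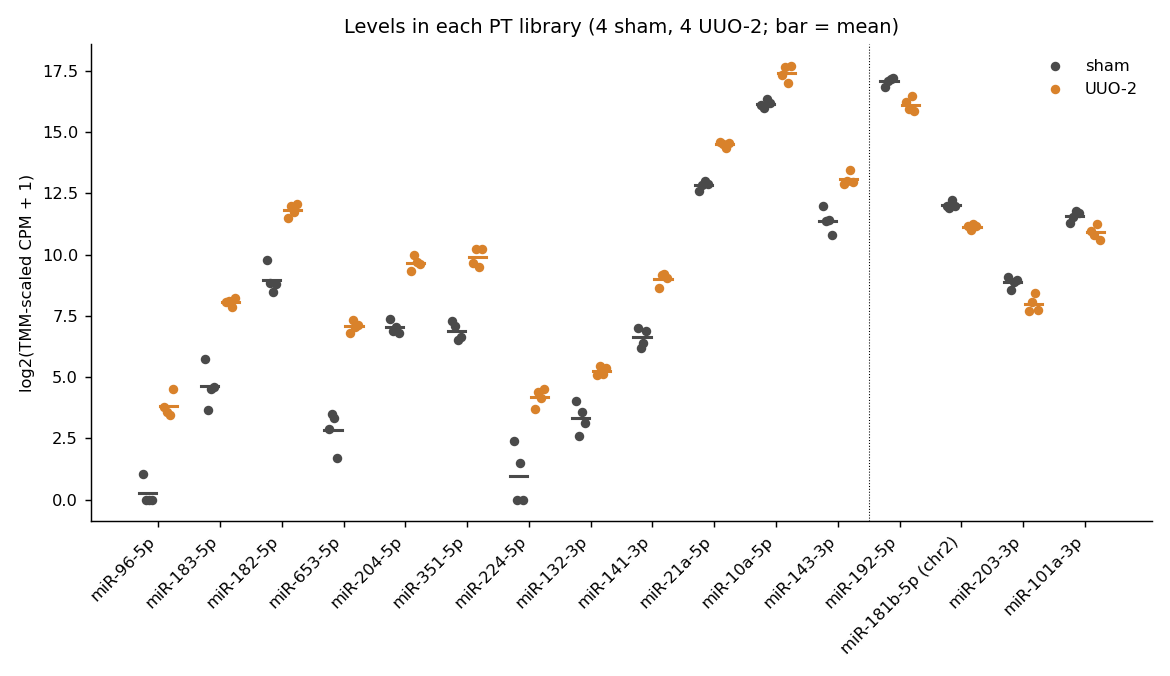
Points are the 4 sham and 4 UUO-2 libraries of PT cells and bars their means, as log2 of the TMM-scaled CPM plus 1, for 12 loci called higher (left of the dotted line) and 4 called lower. The groups do not overlap in any of the 16 loci, and the sham points of miR-96-5p lie at or near 0.

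Several rises came from hairpins that lie in the introns of genes. MiR-204-5p (chr19:22750610-22750631, plus strand, in an intron of Trpm3), a miRNA of renal and ocular epithelia, had 166, 119, 133 and 109.7 CPM in sham and 646, 1015, 829.8 and 791 CPM in UUO-2. Its rise of 2.64 ± 0.24 had the smallest adjusted p of the comparison (2.31e-06) and was the one called member of the miR-204 and miR-211 list, where no other locus passed the filter. MiR-653-5p (chr6:3721355-3721375, minus strand, in an intron of the calcitonin receptor gene Calcr) rose from 6.47, 10.2, 9.02 and 2.24 to 111, 159.8, 133 and 138 CPM. Its change was 4.26 ± 0.50 (adjusted p = 3.65e-05), and its neighbour miR-489 did not pass the filter in either arm. The sham 4 level of miR-653-5p was under the limit of 3 counts, so the size of its rise is uncertain. MiR-224-5p (chrX:72261085-72261105, minus strand, in an intron of Gabre) had 4.32, 0, 1.80 and 0 CPM in sham and 11.8, 20.0, 17.0 and 21.9 CPM in UUO-2 (fitted change 3.39 ± 0.73, adjusted p = 0.00455), with 3 sham libraries under the limit of 3 counts, and its fitted value is not a measured fold. Of the 63 called loci 35 lay inside an annotated gene of the same strand, beside 236 of the 330 tested.

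Other single members rose by less. MiR-132-3p, a miRNA induced by CREB, had 15.1, 5.11, 10.8 and 7.83 CPM in sham and 33.5, 42.7, 34.5 and 40.8 CPM in UUO-2 (change 1.93 ± 0.30, adjusted p = 0.000556). MiR-375-3p, known from pancreatic islets, rose from 96.0, 123, 85.7 and 89.5 to 198, 181, 282 and 237 CPM (change 1.19 ± 0.22, adjusted p = 0.00255). MiR-9-5p, known from neurons, is counted at 3 loci with the same mature sequence, of which 2 rose (chr7 2.12 ± 0.50, adjusted p = 0.00816, chr3 1.86 ± 0.50, adjusted p = 0.0155). The chr13 copy changed by 1.49 ± 0.60 (adjusted p = 0.0901). The opposite strand entries miR-9b-3p carry identical counts at both called loci, so that the 4 calls rest on 2 sets of reads, and how reads were shared between the copies is not given in the sources used here. MiR-31-5p had 31.3, 14.1, 12.6 and 15.7 CPM in sham and 42.4, 80.8, 59.4 and 69.6 CPM in UUO-2, with a change of 1.77 ± 0.47 (adjusted p = 0.0155). MiR-375-3p, miR-31-5p and the chr3 copy of miR-9 lie outside the rule for named loci and were chosen after their values were seen.

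The X chromosome cluster at chrX:53048044-53054327 (minus strand, in no annotated gene of that strand) had 5 tested loci and all 5 rose, with fitted changes of 1.45 to 3.29. MiR-351-5p, with the seed CCCUGAG of the miR-125 family, was its most abundant member, at 154, 137, 90.2 and 98.5 CPM in sham and 801, 1195, 726 and 1209 CPM in UUO-2. Every UUO-2 library was over 4 times the highest sham library (change 3.04 ± 0.53, adjusted p = 0.00126). MiR-322-5p, the mouse counterpart of human miR-424 with the seed of miR-15 and miR-16, rose from 46.4, 24.3, 37.9 and 50.4 to 187, 221, 110.3 and 198 CPM (change 2.16 ± 0.69, adjusted p = 0.0333). Its other arm miR-322-3p rose by 1.45 ± 0.30 (adjusted p = 0.00414). MiR-542-3p went from 0, 1.28, 3.61 and 0 to 12.8, 14.5, 14.3 and 12.9 CPM, and miR-450b-5p from 4.32, 0, 0.902 and 2.24 to 11.8, 18.2, 6.89 and 12.9 CPM, both with sham levels at or near the limit of 3 counts and no measured fold. In the list of miR-15 and miR-16 relatives 2 of 9 tested loci were called, near the 19.1% called over all loci. Both were arms of miR-322, and the other 7 had changes of -0.38 to 1.30. Without 1 library the calls of miR-322-5p (7 of the 8 libraries, adjusted p up to 0.0815, change 2.00 to 2.30) and miR-450b-5p (6 libraries, up to 0.0866) were lost. In sham miR-351-5p had 8687 ± 2752 CPM (SD, n = 4) in PDGFR-β+ cells and 2529.7 ± 125 CPM in ECs against 102 ± 25.9 CPM in PT cells, scaled over 63 libraries. Its PT level was 1.17% of that of PDGFR-β+ cells in sham and 12.4% at UUO-2. A share of other cells in the PT gate was not tested.

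Within the miR-200 family, which represses the transcription factors Zeb1 and Zeb2 and keeps cells epithelial, 3 of 8 tested loci were called, all higher and all from the chr6 hairpins (chr6:124717917-124718346, minus strand, in an intron of the antisense RNA Gm15884). The list had a median change of 0.36, and over all loci 19.1% were called. MiR-141-3p had 127, 72.9, 82.1 and 119 CPM in sham and 402, 572, 584 and 526 CPM in UUO-2, a change of 2.38 ± 0.51 (adjusted p = 0.00455). MiR-200c-3p rose from 32.4, 17.9, 7.22 and 7.83 to 57.2, 91.7, 77.9 and 79.5 CPM (change 2.24 ± 0.43, adjusted p = 0.00300), and miR-141-5p rose by 2.09 ± 0.65 (adjusted p = 0.0321), a call lost without sham 1, sham 4, UUO-2 1, UUO-2 2 or UUO-2 4 (adjusted p up to 0.0948). The chr4 hairpins in an intron of Ttll10 were more abundant and were not called. MiR-200b-3p had 4175, 3624, 3577 and 3701 CPM in sham and 5584, 6171, 5204 and 5252 CPM in UUO-2, with a change of 0.56 ± 0.11 that passed the test (adjusted p = 0.00332) but not the fold of 1.5. MiR-200a-3p changed by 0.11 ± 0.20 (adjusted p = 0.724) and miR-429-3p by 0.15 ± 0.15 (adjusted p = 0.508). Since a ratio of counts within a library does not depend on scaling, the counts of miR-200c-3p and miR-141-3p were divided by those of miR-200a-3p, miR-200b-3p and miR-429-3p. They came to 2.34%, 1.35%, 1.40% and 1.92% in the sham libraries and 5.30%, 7.13%, 7.39% and 7.69% in UUO-2. On the log2 scale the ratio rose by 1.99 (2-sided exact permutation test, n = 4 against 4, p = 0.0286, the smallest possible, and 0.0571 adjusted over 8 such tests), and by 1.88 to 2.15 when any 1 library was left out. The same ratio changed by 0.04 in ECs, 0.07 in Macs and 0.16 in PDGFR-β+ cells (exact permutation tests, p = 0.83, 0.63 and 0.54). The adjusted values do not pass 0.05, and both ratios were chosen after the family's values were seen.

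The miR-181 family split within 1 seed, ACAUUCA. Of 9 tested loci of the list 2 were called higher and 3 lower, beside 14.8% and 4.24% over all loci (median of the list -0.51). Of the 6 loci with this seed 2 were called higher and 2 lower. The other locus called lower, the passenger arm miR-181a-2-3p, has another seed. MiR-181c-5p and miR-181d-5p, both from chr8:84178759-84178945 in an intron of the germ cell gene Nanos3, rose. MiR-181d-5p had 41.0, 28.1, 31.6 and 41.4 CPM in sham and 85.8, 131, 110.3 and 98.4 CPM in UUO-2 (change 1.58 ± 0.32, adjusted p = 0.00409), and miR-181c-5p rose from 97.1, 99.7, 119 and 82.8 to 243, 293, 274 and 256 CPM (change 1.42 ± 0.40, adjusted p = 0.0223). MiR-181b-5p, counted at chr1 and chr2 with the same mature sequence, fell, and how reads were shared between the copies is not given in the sources used here. Its chr2 copy had 4071, 3842, 4864 and 4046 CPM in sham and 2287, 2067, 2422 and 2294 CPM in UUO-2 (change -0.89 ± 0.21, adjusted p = 0.00953), and the chr1 copy changed by -0.92 ± 0.22 (adjusted p = 0.0102). MiR-181a-5p, the most abundant member, had 15909.9, 15058, 20081 and 18441 CPM in sham at the chr2 locus and 12581, 11436, 13108 and 11796 CPM in UUO-2. Its change of -0.51 ± 0.13 passed the test (adjusted p = 0.0136) but not the fold of 1.5. The passenger arm miR-181a-2-3p fell by 0.67 on the log2 scale (adjusted p = 0.0451), a call that was lost without any library but UUO-2 3 (adjusted p up to 0.176), and that of miR-181c-5p was lost without UUO-2 1, UUO-2 4 or sham 4 (up to 0.0581). Counts of miR-181c-5p and miR-181d-5p were 0.527%, 0.514%, 0.459% and 0.418% of those of miR-181a-5p and miR-181b-5p in sham and 1.68%, 2.41%, 1.87% and 1.90% in UUO-2. The log2 ratio rose by 2.03 (exact permutation test, 2-sided, n = 4 against 4, p = 0.0286, adjusted over 8 tests 0.0571) and by 1.93 to 2.10 without any 1 library. It changed by 1.43 in Macs, by -0.30 in ECs and by -0.67 in PDGFR-β+ cells (exact permutation tests, p = 0.0286, 0.0571 and 0.0286). Since miR-181c and miR-181d made up a small share of the family, the summed level of the list was lower after obstruction, 18111 to 21056 CPM in UUO-2 against 25150.2 to 33149.9 CPM in sham.

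**Figure D3:**
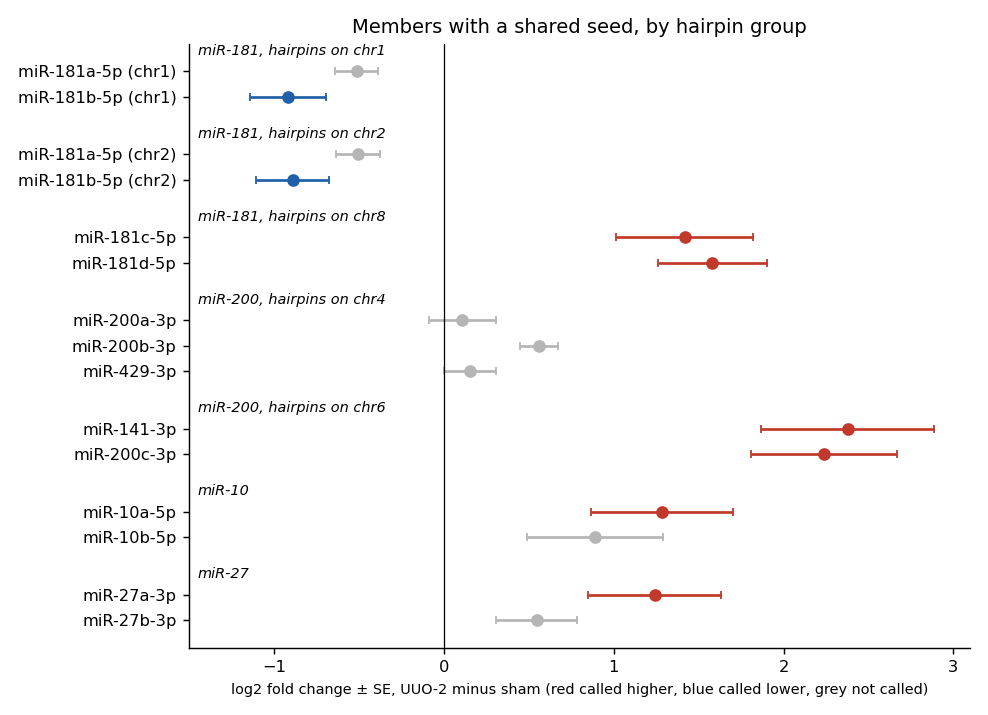
Points are log2 fold changes, UUO-2 minus sham, with SE (n = 4 against 4) for members of the miR-181, miR-200, miR-10 and miR-27 families, grouped by the place of their hairpins. Members from chr8 (miR-181c, miR-181d) and chr6 (miR-141, miR-200c) lie between 1.42 and 2.38, while miR-181 members from chr1 and chr2 lie between -0.92 and -0.51 and miR-200 members from chr4 between 0.11 and 0.56. The chr1 and chr2 loci of miR-181a-5p have the same mature sequence, as do those of miR-181b-5p, and may share reads.

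Hairpin clusters with paralogs gave further differences. In the list of miR-23, miR-27 and miR-24 all 8 tested loci had a positive change and 3 were called, beside 19.1% over all loci (median 0.82). From chr8:84208563-84208896, miR-23a-3p rose from 93.9, 56.2, 55.9 and 53.7 to 210, 254, 144 and 243 CPM (change 1.71 ± 0.36, adjusted p = 0.00455) and miR-27a-3p, which carries the seed UCACAGU, from 113, 119, 105 and 105 to 209, 295, 289 and 251 CPM (change 1.24 ± 0.39, adjusted p = 0.0333). From the paralog on chr13, miR-23b-3p rose by 0.87 ± 0.13 (adjusted p = 0.000556), with 619, 446, 604 and 628 CPM in sham and 986, 1121, 1044 and 1042 CPM in UUO-2. The far more abundant miR-27b-3p, at 14151, 12885, 14216 and 13053 CPM in sham and 17055, 20560, 22144 and 19539 CPM in UUO-2, changed by 0.55 ± 0.24 (adjusted p = 0.116) and was not called. The call of miR-27a-3p was lost without any 1 of the 8 libraries (adjusted p 0.0544 to 0.0808, change 1.15 to 1.30). In ECs the sham level of miR-23a-3p was 1649.6 CPM and that of miR-27a-3p 4063 CPM, scaled over 63 libraries, against 55.0 and 93.8 CPM in PT cells.

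Of the miR-17-92 cluster and its paralogs, known for proliferation, 16 loci were tested with 2 called higher and 1 lower (median 0.01). Over all loci 14.8% were called higher and 4.24% lower. MiR-17-5p had 32.4, 58.8, 52.3 and 56.0 CPM in sham and 79.8, 84.4, 87.0 and 92.5 CPM in UUO-2 (change 0.79 ± 0.23, adjusted p = 0.0232, and 0.0624 and 0.0684 without UUO-2 3 and UUO-2 4). MiR-92a-1-5p, the passenger arm of miR-92a on chr14, rose from 1.08, 1.28, 6.32 and 2.24 to 14.8, 22.7, 9.54 and 23.9 CPM (change 2.56 ± 0.53, adjusted p = 0.00414). MiR-92a-3p fell at its chrX locus, with 1192, 1040.4, 1397 and 1247 CPM in sham and 531, 528, 626 and 459 CPM in UUO-2 (change -1.18 ± 0.32, adjusted p = 0.0156), but at the chr14 locus of the same mature sequence it was 5811, 4934, 5663 and 5512 CPM in sham and 7209, 8650.2, 8416 and 7619.7 CPM in UUO-2 (change 0.54 ± 0.14, adjusted p = 0.0155, under the fold of 1.5). With the loci of 1 name summed, miR-92a-3p changed by 0.39 and was not called, and without sham 3 the chrX locus had an adjusted p of 0.0566. The fall at chrX is therefore uncertain as a change of the mature miRNA.

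The let-7 family, the repressors of growth genes, had 21 tested loci with 2 called, both higher, and a median of -0.20. Over all loci 19.1% were called. Let-7i-5p had 2735, 2301, 2400.2 and 1984 CPM in sham and 4377, 5094, 4990.5 and 4011 CPM in UUO-2 (change 0.97 ± 0.26, adjusted p = 0.0155), while the other 10 tested loci with a RefSeq entry of its seed GAGGUAG had changes of -0.71 to 0.08. Let-7j rose by 1.24 ± 0.36 (adjusted p = 0.0243), a call lost without sham 1, sham 2, sham 4, UUO-2 1 or UUO-2 4 (adjusted p up to 0.0674). The let-7f locus of chrX, one of the 10 most abundant loci of sham PT cells, was at 56346, 64631, 60027 and 59113 CPM in sham and 53231, 49872, 58950 and 47488 CPM in UUO-2 (change -0.20 ± 0.13, adjusted p = 0.314).

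Among the miR-99, miR-100 and miR-125 loci 1 of 11 was called (median 0.11), miR-125a-5p with 8007, 6540.3, 7496 and 7122 CPM in sham and 9994, 14411, 10058 and 12132 CPM in UUO-2 (change 0.68 ± 0.18, adjusted p = 0.0153, and 0.0520 without UUO-2 4). In the miR-30 family, abundant in tubular epithelium and podocytes, 1 of 12 tested loci was called (median 0.07), and over all loci 19.1% were called. The called member was miR-30b-5p, at 1155, 1145, 1399 and 1527 CPM in sham and 1766, 2437, 1994 and 1927 CPM in UUO-2 (change 0.64 ± 0.20, adjusted p = 0.0321), and the call was lost without any library but sham 3 or sham 4 (adjusted p up to 0.0715). The abundant miR-30a-5p changed by 0.08 ± 0.17, miR-30c-5p of chr1 by -0.08 ± 0.18 and miR-30e-5p by -0.23 ± 0.18 (adjusted p = 0.757, 0.757 and 0.378). No tested locus was called in the lists of miR-29 (4 tested, median -0.16), miR-34 and miR-449 (2, median 0.21), miR-221 and miR-222 (4, median 0.02), miR-26 with miR-103 and miR-107 (7, median -0.07), miR-378a (2, median -0.01) and the Clcn5 intron cluster (3, median 0.21). MiR-26a-5p of chr10 and miR-22-3p, both among the 10 most abundant loci in sham, changed by 0.09 ± 0.17 and -0.17 ± 0.17 (adjusted p = 0.748 and 0.523).

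Both arms of miR-21a, a miRNA known to rise in injured and fibrotic kidneys, were higher. MiR-21a-5p, from an exon of Vmp1 on chr11, had 6172, 7329, 8221 and 7569 CPM in sham and 24986, 23702, 20698 and 24376 CPM in UUO-2, and the libraries of each group lay close together (change 1.68 ± 0.36, adjusted p = 0.00455). MiR-21a-3p rose from 106.8, 88.2, 112 and 134 to 328, 208, 331 and 304 CPM (change 1.41 ± 0.30, adjusted p = 0.00455). In the list of inflammation miRNAs 2 of 4 tested loci were called, both higher, beside 19.1% called over all loci (median 0.64): miR-132-3p, given above, and miR-155-5p, a miRNA of activated immune cells, which had 7.55, 21.7, 11.7 and 22.4 CPM in sham and 46.3, 42.7, 30.2 and 44.7 CPM in UUO-2 (change 1.37 ± 0.35, adjusted p = 0.0136). MiR-146a-5p, from the same list, was at 262, 235, 286 and 227 CPM in sham and 225, 179, 159.6 and 170 CPM in UUO-2 (change -0.46 ± 0.24, adjusted p = 0.178). Both arms of miR-210, the miRNA induced by hypoxia-inducible factors, were called higher at low levels. MiR-210-5p had 2.16, 0, 7.22 and 0 CPM in sham and 15.8, 19.1, 11.7 and 9.94 CPM in UUO-2 (change 2.40 ± 0.65, adjusted p = 0.0156). For miR-210-3p the values were 12.9, 8.95, 7.22 and 3.36 and 8.87, 36.3, 31.8 and 23.9 CPM, with UUO-2 1 below sham 1 and sham 2 (change 1.64 ± 0.51, adjusted p = 0.0325), and the call was lost without any library but sham 1 or UUO-2 1 (up to 0.0953).

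Among the most abundant loci of PT cells miR-10a-5p and miR-192-5p moved in opposite directions. MiR-10a-5p, encoded between Hox genes on chr11, had 71632, 65867, 83824 and 74768 CPM in sham and 164603, 210011, 130299 and 215206 CPM in UUO-2 (change 1.28 ± 0.42, adjusted p = 0.0371), and its share of all counts went from 8.28% to 9.41% in sham to 14.7% to 22.1% in UUO-2. MiR-10b-5p, its relative on chr2, had 72675, 73236, 89891 and 89021 CPM in sham and 153551, 160777, 108348 and 178558 CPM in UUO-2, and the groups did not overlap, but its change of 0.89 ± 0.40 was not called (adjusted p = 0.121). The list of the miR-10 family had 1 of 4 tested loci called and a median of 0.77. MiR-192-5p, the main miRNA of the PT, fell from 116763, 140349, 147854 and 152279 to 76188, 62603, 91037 and 60064 CPM (change -0.94 ± 0.31, adjusted p = 0.0404). Of the 5 tested PT markers it was the 1 called, beside 19.1% called over all loci, and all 5 had negative changes (median -0.55). The 5 are arms or copies of miR-192 and miR-194, 4 of them from 1 hairpin cluster on chr19, and are not independent. MiR-194-5p of chr19, from the same hairpin cluster (chr19:6264658-6264921), was at 2606, 3019, 3254 and 3314 CPM in sham and 2022, 1817, 2105 and 1594 CPM in UUO-2, groups that did not overlap (change -0.69 ± 0.26, adjusted p = 0.0711). Leaving out any library but UUO-2 3 ended both calls, with adjusted p of 0.0599 to 0.118 and changes of 1.16 to 1.37 for miR-10a-5p and adjusted p of 0.0546 to 0.130 and changes of -0.998 to -0.856 for miR-192-5p.

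The other falls came from loci of several kinds. MiR-203-3p, known from keratinocytes, had 536, 378, 476 and 503 CPM in sham and 208, 267, 345 and 212 CPM in UUO-2 (change -0.87 ± 0.20, adjusted p = 0.00622). The entry miR-203b-5p on the opposite strand at chr12:112130927-112130946 carries identical counts, so that the 2 calls rest on 1 set of reads. Both arms of miR-101a, which represses Ezh2, fell, miR-101a-3p with 2481, 2961, 3496 and 3302 CPM in sham and 2022, 1791, 2406 and 1559.9 CPM in UUO-2 (change -0.65 ± 0.21, adjusted p = 0.0346) and miR-101a-5p with a change of -1.21 ± 0.38 (adjusted p = 0.0333). MiR-744-5p, in an intron of Map2k4, changed by -0.63 ± 0.19 (adjusted p = 0.0303) and miR-339-3p by -1.04 ± 0.27 (adjusted p = 0.0155). MiR-203-3p lies outside the rule for named loci and was chosen after its values were seen. The 3 deepest falls were less even between libraries. MiR-6538, in an intron of Rnf144a, had 2399, 3146, 1585 and 1945 CPM in sham and 192, 129.8, 1203 and 191 CPM in UUO-2, where UUO-2 3 lay closer to the lowest sham library than to the other UUO-2 libraries (change -2.39 ± 0.81, adjusted p = 0.0451). MiR-5119, in an intron of Cdk12, had 62.6, 66.5, 33.4 and 68.3 CPM in sham and 5.91, 7.26, 25.5 and 13.9 CPM in UUO-2 (change -2.07 ± 0.47, adjusted p = 0.00651), and miR-5100, in an intron of Mief2, 29.1, 34.5, 15.3 and 58.2 CPM in sham and 1.97, 4.54, 7.42 and 1.99 CPM in UUO-2 (change -2.97 ± 0.96, adjusted p = 0.0353). MiR-5100 was under the limit of 3 counts in UUO-2 1 and UUO-2 4, and its fitted change is no measured fold. Without 1 library the calls of miR-6538 (every library but UUO-2 3, adjusted p up to 0.129), miR-5100 (every library but UUO-2 3 and sham 3, up to 0.111), miR-744-5p (every library but UUO-2 3 and sham 2, up to 0.105), miR-101a-3p (every library but sham 1, sham 2 and UUO-2 3, up to 0.0991) and miR-101a-5p (every library but sham 1 and UUO-2 1, up to 0.109) were lost, while those of miR-5119, miR-203b-5p and miR-339-3p were kept.

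In 20 hairpins both arms were tested and at least 1 was called, and the arms had the same sign in 19, with both arms called in 6. The exception was miR-17, whose 3p arm changed by -0.56 ± 0.57 (adjusted p = 0.520). The 2 arms of a hairpin come from 1 precursor and are not independent. One of the 6 hairpins, that of miR-9 on chr7, is counted with the opposite strand entry miR-9b-3p as its other arm.

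Markers of other cell types were called higher in PT cells in 2 of the 4 lists, of PDGFR-β+ cells and of leukocytes, and in neither the EC nor the erythroid list, beside 19.1% called over all loci. Of the PDGFR-β+ cell markers 2 of 7 tested loci were called, both higher, and 5 had positive changes (median 1.33), and the list summed to 1963 to 4237 CPM in sham and 7828 to 11688 CPM in UUO-2. Most of this sum was miR-143-3p, so it follows that miRNA and not the list as a whole. MiR-143-3p, a miRNA of smooth muscle and stromal cells, had 4009.6, 2683, 2697 and 1795 CPM in sham and 7479, 8312, 11398 and 8091 CPM in UUO-2 (change 1.66 ± 0.53, adjusted p = 0.0346), and its neighbour miR-145a-5p rose from 18.3, 19.2, 12.6 and 8.95 to 152, 139.8, 55.1 and 102 CPM (change 2.92 ± 0.82, adjusted p = 0.0207). The call of miR-143-3p was lost without any library but sham 1 (adjusted p up to 0.0953, change 1.47 to 1.71) and that of miR-145a-5p without UUO-2 1, sham 3 or sham 4 (up to 0.0581). The PT level of miR-143-3p was 0.648% of that of PDGFR-β+ cells in sham and 2.87% at UUO-2. Of the miR-199 loci none was called: miR-199a-3p of chr1 changed by -0.26 ± 0.25, miR-199b-3p by -0.59 ± 0.35 and miR-199a-5p of chr1 by 0.45 ± 0.53 (adjusted p = 0.488, 0.241 and 0.587), and neither arm of miR-214 passed the filter. Of the Mac and leukocyte markers 1 of 3 tested loci was called (median 0.99): miR-142a-5p, a haematopoietic miRNA, had 119.8, 89.5, 80.3 and 87.3 CPM in sham and 265, 161, 152 and 174 CPM in UUO-2 (change 0.99 ± 0.29, adjusted p = 0.0243). Its PT level was 0.219% of that of Macs in sham and 0.674% at UUO-2. Without UUO-2 1 its change was 0.76 (adjusted p = 0.101), and the call was also lost without UUO-2 4, sham 2, sham 3 or sham 4 (up to 0.0841). Both arms of the Mac marker miR-511 and miR-150-3p were at 0 counts in all 8 libraries, miR-223-3p changed by 0.25 ± 0.51 (adjusted p = 0.748), and miR-150-5p, a lymphocyte miRNA, had 29.1, 34.5, 24.4 and 35.8 CPM in sham and 131, 71.7, 36.1 and 76.6 CPM in UUO-2 (change 1.34 ± 0.56, adjusted p = 0.0941). Scaled over 63 libraries, miR-150-5p was higher in ECs than in Macs, with 3244 against 129 CPM in sham and 2395 against 308 CPM at UUO-2. It is therefore no marker of leukocytes alone among these populations. The whole leukocyte list, miR-150-5p included, summed to 110 to 154 CPM in sham and 192 to 402 CPM in UUO-2.

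Of the EC markers none of 2 tested loci was called (median 0.74). MiR-126a-5p, the defining miRNA of ECs, had 713, 807, 636 and 588 CPM in sham and 1892, 803, 803 and 772 CPM in UUO-2, with UUO-2 1 above the others, and a change of 0.64 ± 0.35 (adjusted p = 0.203). Of the erythroid markers none of 2 was called (median 0.21), and miR-144-3p was at 0 counts in all 8 libraries. Of the 49 loci called higher 45 were lower in sham PT cells than in at least 1 of the other populations (in 25 PDGFR-β+ cells had the highest level, in 11 ECs and in 9 Macs), beside 219 of all 330 tested loci. The calls were made with the same sham PT levels and favour loci that are low there, so this excess is no separate result. At UUO-2, 33 of the 49 were below another population, a share near that of 217 of the 330. Among the 16 that were above all other populations at UUO-2, miR-653-5p had 119 CPM against at most 5.40 CPM, miR-182-5p 3217 against at most 304 and miR-141-3p 457 against at most 146, scaled over 63 libraries. The part of other cells or of free RNA in the rises of loci that PDGFR-β+ cells, ECs or Macs hold at higher levels was not tested.

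**Figure D4:**
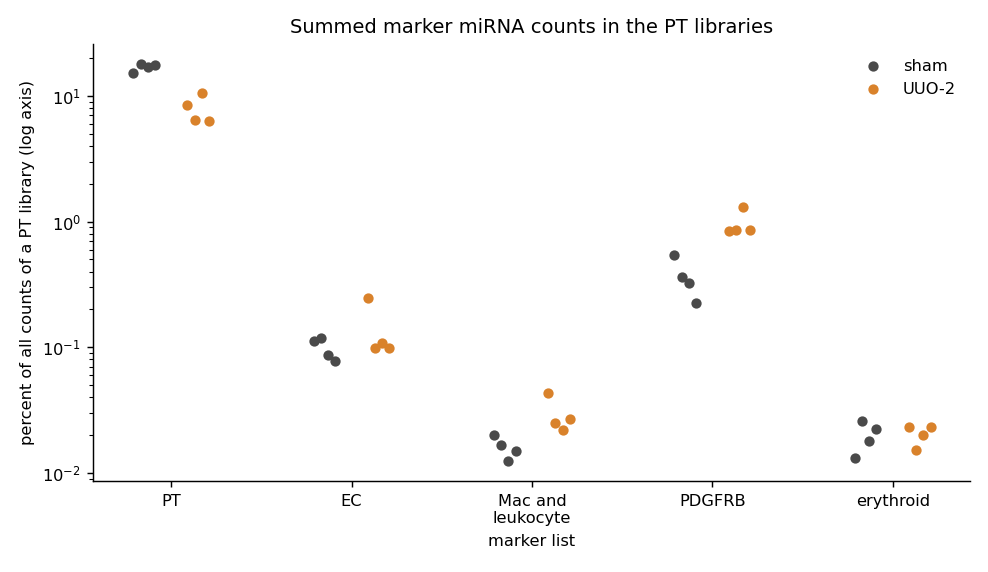
Each point is a PT library, sham or UUO-2, and the y axis (log scale) gives the counts of all loci of a marker list as a percent of the library. The PT markers are lower and the PDGFRB markers higher in every UUO-2 library, while the EC and leukocyte markers are highest in UUO-2 1.

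The change of PT cells was then compared with that of the other populations, by the difference between the PT change and the mean change of ECs, Macs and PDGFR-β+ cells in a fit over all 63 libraries. Of 671 loci 78 differed (11.6%), 66 with a higher change in PT cells (9.84%) and 12 with a lower one (1.79%). The median difference over all loci was 0.16, and the split depends on the scaling: with the library size alone it was 34 higher and 26 lower around a median of -0.18, with DESeq2 40 and 47 around -0.32, and with TMM within each cell type 58 and 22 around 0.03. Leaving out UUO-2 2 or UUO-2 4 of PT cells gave 40 and 50 loci. Of the 49 loci called higher in PT cells 37 also differed upwards from the other populations, and of the 14 called lower 3 differed downwards, both copies of miR-181b-5p and the chrX locus of miR-92a-3p.

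MiR-204-5p had the smallest p of this comparison. Its mean level over 63 libraries rose from 112 ± 20.1 to 719.8 ± 136 CPM (SD, n = 4) in PT cells, while it went from 2796 ± 741 to 1664 ± 303 CPM in ECs and from 835 ± 487 to 367 ± 65.4 CPM in PDGFR-β+ cells (difference 3.45 ± 0.39, adjusted p = 2.71e-09). MiR-653-5p had means of 2.32 to 8.09 CPM in the other populations in both conditions (difference 4.70 ± 0.65, adjusted p = 3.12e-07). Its sham 4 level in PT cells was under the limit of 3 counts. For the miR-183 cluster the differences were 5.74 ± 1.57 for miR-96-5p, 2.69 ± 0.48 for miR-183-5p and 2.30 ± 0.40 for miR-182-5p (adjusted p = 0.00904, 4.24e-05 and 3.5e-05). The value for miR-96-5p rests on sham PT counts at or near the floor and is no measured difference. MiR-141-3p differed by 2.69 ± 0.48 and miR-200c-3p by 2.09 ± 0.57 (adjusted p = 4.81e-05 and 0.00871), and miR-351-5p by 2.87 ± 0.37 (adjusted p = 5.87e-08). MiR-10a-5p rose in PT cells by 1.33 in this fit and changed by 0.02, -0.33 and 0.32 in ECs, Macs and PDGFR-β+ cells (difference 1.33 ± 0.32, adjusted p = 0.00278).

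The injury miRNA miR-21a did not set PT cells apart in the same direction. MiR-21a-5p changed by 1.72 in PT cells, 2.02 in ECs, 0.87 in Macs and 3.20 in PDGFR-β+ cells (difference -0.31 ± 0.30, adjusted p = 0.680), and miR-21a-3p had a lower change in PT cells than in the others (difference -1.44 ± 0.36, adjusted p = 0.00395). For miR-132-3p and miR-155-5p the differences of 0.47 ± 0.35 and -0.25 ± 0.45 did not pass the test (adjusted p = 0.480 and 0.938). MiR-192-5p differed by -0.45 ± 0.31 (adjusted p = 0.426), where the other populations held it at 2286 to 3889 CPM on average. Both copies of miR-181b-5p, which share 1 mature sequence and may share reads, fell in PT cells relative to the others (chr2 -1.002 ± 0.19, adjusted p = 0.000140).

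**Figure D5:**
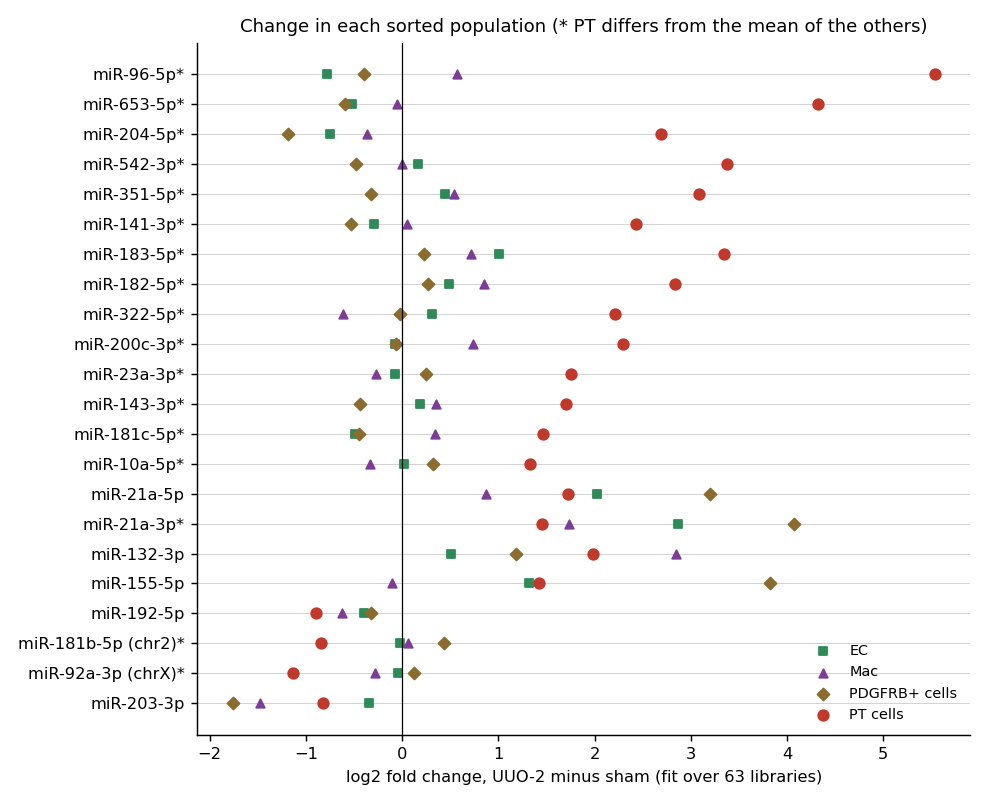
Symbols give the log2 fold change, UUO-2 minus sham, of 22 loci in ECs, Macs, PDGFR-β+ cells and PT cells from the fit over 63 libraries, and an asterisk marks loci whose PT change differed from the mean of the others. From miR-96-5p to miR-10a-5p the PT symbol lies right of the other 3, while for miR-21a, miR-132-3p and miR-155-5p at least 1 other population changed more. The PT values of miR-96-5p and miR-542-3p are fitted, with most sham libraries at or under the limit of 3 counts, and are no measured folds.

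UUO-7 was set beside UUO-2 in PT cells to see where the levels of these members stood after 7 days of obstruction, in a comparison that shares the UUO-2 libraries with the first. Of 330 loci 14 differed (4.24%), 9 higher and 5 lower at UUO-7. MiR-375-3p went on from a mean of 224 ± 44.8 to 1507 ± 318 CPM (SD, n = 4, change 2.75 ± 0.23, adjusted p = 5.12e-07). MiR-181d-5p had 281, 252, 385 and 376 CPM in the 4 UUO-7 libraries, all above the UUO-2 libraries (change 1.60 ± 0.30, adjusted p = 0.00784), and let-7i-5p had 8503, 6899, 12752 and 9246 CPM (change 1.02 ± 0.26, adjusted p = 0.0260). MiR-335-5p, in an intron of Mest, was higher at UUO-2 than in sham, with 7.55, 6.39, 1.80 and 2.24 CPM in sham and 30.6, 22.7, 10.1 and 12.9 CPM in UUO-2 (change 2.08 ± 0.62, adjusted p = 0.0279), and lower again at UUO-7, with 3.93, 4.92, 3.52 and 2.87 CPM (change -2.29 ± 0.57, adjusted p = 0.0259). MiR-181a-2-3p fell at UUO-2 and stood at 111, 111, 140.7 and 149.6 CPM at UUO-7 (change 0.97 ± 0.22, adjusted p = 0.0154). MiR-335-5p was named after its values were seen. Its levels in sham 3 and sham 4 were under the limit of 3 counts, and its fitted change from sham is no measured fold. The sham and UUO-7 libraries alone would not have carried it past the filter, so its rise and later fall are not independent of the filter.

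For the main members the difference between 7 and 2 days did not pass the test. MiR-182-5p had 10177, 6132, 16084 and 10299 CPM at UUO-7 (change 1.54 ± 0.44, adjusted p = 0.0567) and miR-204-5p 1488, 1061, 1749 and 1277 CPM (change 0.76 ± 0.23, adjusted p = 0.0577), with all 4 UUO-7 libraries above the highest UUO-2 library in both. MiR-192-5p had 42558, 58807, 35255 and 45116 CPM, below every UUO-2 library (change -0.67 ± 0.31, adjusted p = 0.215). How many of all tested loci separate in this way between UUO-7 and UUO-2 was not counted, so the separation adds nothing to these tests. MiR-351-5p changed by -0.45 ± 0.48, miR-653-5p by -0.29 ± 0.39 and miR-21a-5p by 0.07 ± 0.35 (adjusted p = 0.606, 0.684 and 0.909). Without R-UUO 1 in the fit 46 loci differed between UUO-7 and UUO-2 in place of 14, and without UUO-2 4 or UUO-7 5 the counts were 8 and 9.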

How the data were processed

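Small RNA libraries of sorted kidney cells were sequenced, and the authors trimmed the reads with Trim Galore 0.4.1 and cutadapt 1.1, placed them on GRCm38 with ShortStack, a wrapper of Bowtie, and deposited raw counts per mature miRNA locus of miRBase 22. The strand setting and the sharing of reads between identical loci are not given in the sources used here. Counts of the 16 PT libraries (4 in each of the 4 conditions) were filtered with filterByExpr (minimum count 10), scaled by TMM and tested with edgeR 4.0.16 (R 4.3.3), by the quasi-likelihood test with the Benjamini-Hochberg adjustment over all tested loci, and the difference between populations was fitted over all 63 libraries. Groups and replicate numbers were taken from the labels, and the PT libraries came from separate mice, while the 4 populations were sorted from the same mice. Totals per PT library of the 2 groups ran from 622689 to 1675136 counts, and no 2 libraries agreed within sampling noise.

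The members and lists were chosen with earlier results of these data known. Named loci were the 16 rises and 10 falls of largest size among called loci without overlap, the 5 most abundant called loci in each direction, the 10 most abundant loci of sham PT cells and every called member of a list. Alternatives were DESeq2 1.42.0, the likelihood ratio test, other scalings, no filter, only the 2 groups, a replicate block, summed or identical loci and leaving out each replicate. The ratios within families, and the fits without R-UUO 1 and with thinned libraries, were chosen after seeing the data. On simulated data for UUO-2 against sham (329 loci), 190 of 200 changed loci were called in the right direction and 2 of 129 unchanged loci were called. The changes put in were large, with median fitted log2 changes of 2.13 for raised and -1.86 for lowered loci, in equal numbers. Recovery of smaller changes, or of changes mostly in 1 direction, was not tested. Other conditions and populations were not analysed here beyond these comparisons.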

Additional observations from a re-analysis of the deposited data

Results flagged for a closer look

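In groups of 4 libraries, 114 of which were tested for 57 named loci, 5 held a library farther from its group than Dixon's 95% limit, where chance alone flags about 1 in 20 groups. They were sham 1 for miR-96-5p (1.08 CPM, the other 3 sham libraries at 0) and for miR-23a-3p (93.9 CPM, the highest), sham 2 for miR-23b-3p (446 CPM, the lowest), sham 3 for miR-5119 (33.4 CPM, the lowest) and UUO-2 3 for miR-6538 (1203 CPM, the highest).

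For 34 named loci the change after 2 days of obstruction differed between PT cells and the mean of ECs, Macs and PDGFR-β+ cells by the test of that difference (adjusted p under 0.05 and more than 1.5-fold). Most named loci were chosen by calls on the PT change, which is part of this difference. On the log2 scale the PT change was higher by 5.74 for miR-96-5p, 4.70 for miR-653-5p, 3.48 for miR-542-3p, 3.45 for miR-204-5p, 2.87 for miR-351-5p, 2.80 for miR-450b-5p, 2.69 for miR-183-5p, 2.69 for miR-141-3p and 2.67 for miR-224-5p. It was higher by 2.38 for miR-210-5p, 2.33 for miR-322-5p, 2.30 for miR-182-5p, 2.28 for miR-145a-5p, 2.15 for miR-322-3p, 2.09 for miR-200c-3p, 1.86 for miR-210-3p, 1.85 for the chr7 copy of miR-9-5p and 1.81 for miR-92a-1-5p. For miR-96-5p, miR-542-3p, miR-450b-5p, miR-224-5p, miR-210-5p and miR-92a-1-5p most sham PT libraries were at or under the limit of 3 counts. Their values are fitted and are no measured differences. Smaller differences were 1.79 for miR-23a-3p, 1.67 for miR-143-3p, 1.66 for miR-181c-5p, 1.48 for miR-181d-5p, 1.44 for miR-27a-3p, 1.33 for miR-10a-5p, 1.14 for let-7j, 1.05 for miR-125a-5p and 1.01 for miR-30b-5p. The lowest positive values were 0.84 for miR-23b-3p, 0.82 for let-7i-5p and 0.62 for the chr10 copy of miR-26a-5p, which was not called in PT cells themselves. Lower changes in PT cells were -1.44 for miR-21a-3p, -1.002 and -1.03 for the chr2 and chr1 copies of miR-181b-5p and -1.07 for the chrX locus of miR-92a-3p.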

How the results depend on the processing

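The 63 calls between UUO-2 and sham became 96 with only the 2 groups in the fit (60 shared), 93 without R-UUO 1 (63 shared), 88 with no filter, 74 with DESeq2, 73 with the likelihood ratio test, 52 with the library size alone and 58 with loci of 1 name summed. Leaving out 1 library gave 38 to 65 calls. The fewest were without UUO-2 4. The 14 calls between UUO-7 and UUO-2 became 28 with DESeq2, 26 with the likelihood ratio test, 8 with the library size alone, 36 with no filter, 40 with only the 2 groups and 46 without R-UUO 1, and leaving out 1 library gave 8 to 18. The 78 differences between populations stayed within 60 to 87 under other settings, and leaving out 1 PT library gave 40 to 80, with 40 without UUO-2 2 and 50 without UUO-2 4. Signs turned for 4 loci that lay near 0 or share reads: with the library size alone miR-26a-5p (chr10) was at -0.0932 and miR-30a-5p at -0.104, with thinned libraries miR-30a-5p was at -0.0105, miR-30c-5p (chr1) ranged from -0.138 to 0.00769 when a library was left out, and the chrX locus of miR-92a-3p was at 0.39 with loci of its name summed. The scaling by library size alone shifted the median of all loci to -0.15. Replicate numbers did not pair sham and UUO-2 libraries (correlations of same-numbered deviations -0.07, -0.07, -0.02 and 0.10), and a replicate block gave 61 calls (59 shared) for UUO-2 against sham, 17 for UUO-7 against UUO-2 and, with the mouse as the block, 84 differences between populations. Of the 49 named calls 26 were lost under at least 1 alternative, and the cause was not tested. Levels under 3 counts a library, 1.59 to 3.83 CPM, cannot be told from 0 at this depth.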
